A study of Felis catus with 2 samples.

Results

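The 7 genes described here, MGP, CHI3L1, ANGPTL7, PDPN, RSPO4, TMEFF2 and NELL2, are used as markers of the trabecular meshwork, and were found by exact name among the 32065 loci of the deposited table. Each name stands on 1 row, so all 7 were found, and 6 of them reached 1 FPKM, the number of fragments of a locus per unit of exon length and sequencing depth, in at least 1 library. RSPO4 did not reach that level in either library.

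Polyadenylated RNA was sequenced from the iridocorneal angle and ciliary body of 2 cats, with the adjacent sclera and trabecular meshwork in the dissected piece. The Affected library came from a 2 month-old cat with primary congenital glaucoma (PCG), a disease that segregates in its colony as a recessive trait with a frameshift insertion in LTBP2. The Normal library came from an unrelated healthy cat of the same age. The labels give neither the breed nor the LTBP2 genotype of either cat, and the dissected piece held several tissues besides the meshwork.

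The trabecular meshwork is the porous tissue at the root of the iris through which aqueous humor leaves the eye. Its cells form beams of extracellular matrix and, next to the drainage canal, a denser layer that sets most of the resistance to outflow. Meshwork cells secrete matrix proteins, regulators of calcification and modulators of Wnt signaling, and their genes are widely used to recognize them. None of the 7 genes is made by the meshwork alone, since cartilage, vessels, corneal stroma, epithelium and neural tissue make several of them.

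With 1 library per condition the cats could not be compared by a test, and the values below are descriptions of the pair of libraries. FPKM summed to 649113 in the normal cat and to 672893 in the affected cat. The steps between low values gave a scale of 71240000 fragments for the normal cat and 67500000 for the affected cat, so 1 fragment on 1 kilobase of effective length was worth 0.0140 and 0.0148 FPKM. Intervals given below cover only the counting error at that length, since the table gives no transcript lengths. MYOC, which encodes myocilin and is a defining gene of the meshwork that other tissues of the angle also express, stood at 149.7 FPKM in the normal cat and 301.5 FPKM in the affected cat, so this marker was well detected in both.

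The marker genes moved apart between the libraries in both directions. MGP and TMEFF2 were lower in the affected library, CHI3L1 and ANGPTL7 were higher, and PDPN and NELL2 differed by less than 2-fold. The log2 ratio of a gene is log2 of (affected FPKM + 1) over (normal FPKM + 1), and at least 2-fold means a log2 ratio of at least 1 in size. Of the 6 genes at or above the minimum, 2 were higher by at least 2-fold in the affected cat, against 8.14% of the 16676 loci that reached 1 FPKM in a library. At least 2-fold lower were 2 of the 6 genes, against 8.75% of those loci. CHI3L1 passed the minimum only through the affected library and TMEFF2 only through the normal one. The log2 ratios of the 6 genes spanned 7.24 units, and their median was −0.18, beside −0.0047 over all loci, and turned to 0.15 with a mean of at least 5 FPKM, which leaves out TMEFF2. A median over such opposite values describes none of the genes well.

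**Figure D1:**
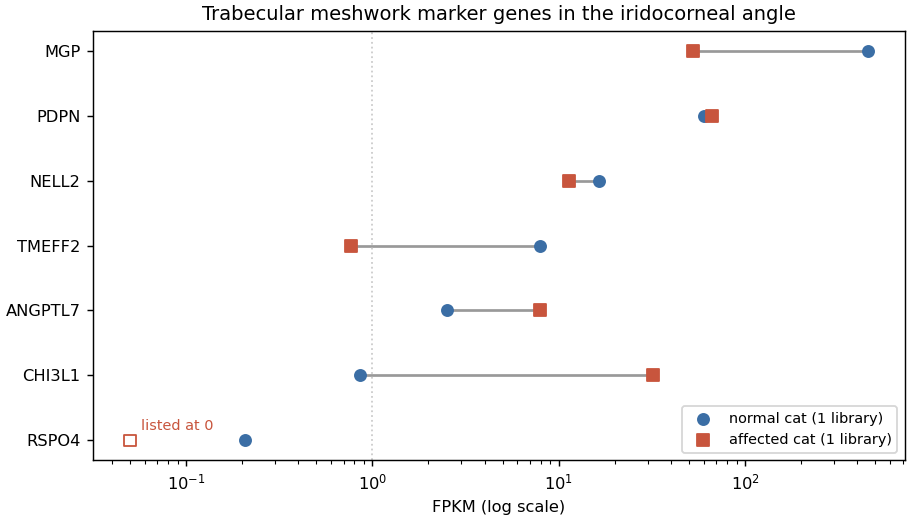
Level of each marker gene in FPKM on a log axis, with a circle for the normal and a square for the affected library, a gray line between the values of a gene, and a dotted line at the minimum of 1 FPKM. MGP and TMEFF2 lie to the left in the affected library, CHI3L1 and ANGPTL7 to the right, PDPN and NELL2 nearly coincide, and RSPO4 is listed at 0 in the affected library.

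The order of the levels differed between the cats. In the normal library MGP was first with 454.9 FPKM, followed by PDPN, NELL2, TMEFF2, ANGPTL7, CHI3L1 and RSPO4. In the affected library PDPN was first with 66.5 FPKM, followed by MGP, CHI3L1, NELL2, ANGPTL7, TMEFF2 and RSPO4. Among the 15 pairs of the 6 genes, 5 had the opposite order in the other library. Ratios between genes of the same library do not depend on the scaling between libraries. MGP was 532.4 times CHI3L1 in the normal library and 1.65 times in the affected one, whereas MGP was 57.1 and 68.6 times TMEFF2. The lower levels of MGP and TMEFF2 thus kept these genes in nearly the same ratio. The 7 genes summed to 542.8 FPKM in the normal cat and 171.4 FPKM in the affected cat, and MGP made up 83.8% and 30.8% of these sums.

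MGP encodes matrix Gla protein, a vitamin K-dependent inhibitor of soft tissue calcification that also binds BMPs. Its locus lies on chromosome B4 of felCat5 (chrB4:50728996-50738193), where no other listed locus overlaps it. MGP stood at 454.9 FPKM in the normal cat and 52.9 FPKM in the affected cat. It was thus 8.61 times as high in the normal cat (8.31 to 8.91 from counting error), with a log2 ratio of −3.08. The normal value exceeded 98.9% and the affected value 89.8% of those 16676 loci, so MGP was abundant in both cats. Only 78 other loci, or 0.468%, were as far down as MGP. Among the 469 loci with a mean within 2-fold of that of MGP, 10 were as far down, or 2.13%. In a bulk sample, fewer cells of a type and less RNA per cell cannot be told apart.

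Genes of the corneal and scleral stroma, whose fibroblasts also make MGP, were mostly lower in the affected library with it. Of 10 stroma genes 9 were listed, and 7 of them were at least 2-fold lower in the affected library, against 8.75% of all loci. The summed level of the 9 genes was 5024 FPKM in the normal cat and 929.3 FPKM in the affected cat. COL1A2, which encodes a chain of type I collagen, was listed at 0 in the normal cat and at 447.2 FPKM in the affected cat, and without it the sums were 5024 and 482.1 FPKM. A value of 0 can be a failed estimate, which was not checked. In all, 35 loci were listed at 0 in exactly 1 library with at least 10 FPKM in the other.

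Single stroma genes differed from MGP in how far they moved. KERA, which encodes the corneal proteoglycan keratocan, stood at 264.7 FPKM in the normal cat and 0.190 FPKM in the affected cat. COL1A1, the other chain of type I collagen, stood at 2476 and 41.8 FPKM, and LUM, which encodes lumican, at 479.5 and 15.6 FPKM. DCN, which encodes decorin, stood at 685.6 and 82.2 FPKM, so that MGP was 0.663 times DCN in the normal library and 0.643 times in the affected one. In contrast, MGP was 0.184 times COL1A1 in the normal library and 1.27 times in the affected one. COL1A2 got no fold because of its 0. Of the 8 other genes, all of which were lower in the affected library, 5 had a larger fold than MGP and 3 a smaller one (DCN, COL6A1 and OGN). The part of the stroma in the MGP difference was not tested.

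**Figure D2:**
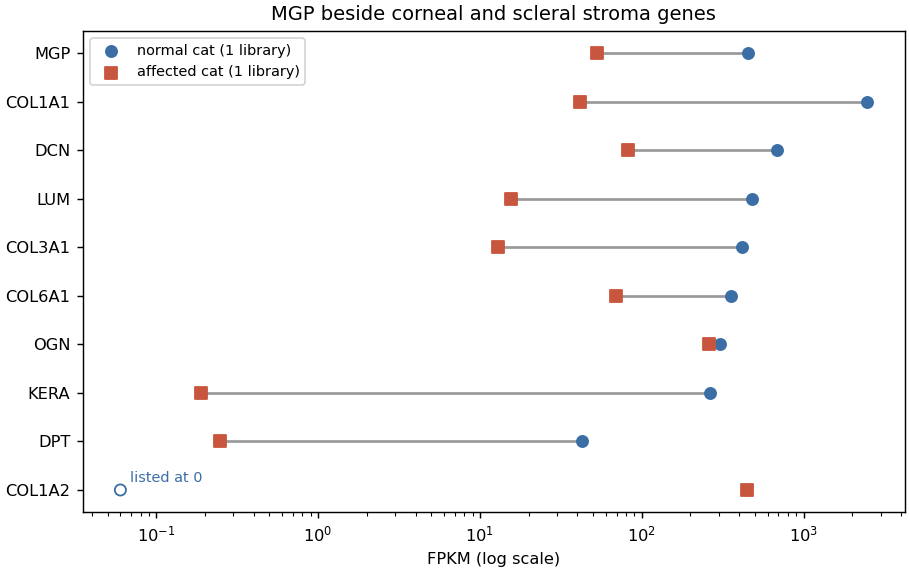
FPKM of MGP and of 9 corneal and scleral stroma genes on a log axis, with a circle for the normal and a square for the affected library and an open symbol for a value listed at 0. MGP moved about as far to the left as DCN, KERA and DPT moved much farther, and OGN moved little.

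Partners of MGP lay mostly within 2-fold, as did most loci, of which only 16.9% were at least 2-fold apart. The list of calcification control holds the vitamin K cycle, other Gla proteins, mineral enzymes and BMP ligands, and 11 of its 14 genes were listed. Of these, 1 was at least 2-fold higher, 3 were at least 2-fold lower and 7 lay within 2-fold, beside 8.14% higher and 8.75% lower over all loci, with a median log2 ratio of −0.083. GGCX, the carboxylase that MGP needs for its activity, stood at 22.6 FPKM in the normal cat and 17.0 FPKM in the affected cat. BMP2 and BMP4, ligands that MGP binds, had log2 ratios of −0.083 and 0.084. GAS6, another Gla protein and a ligand of TAM receptors, stood at 65.2 and 257.3 FPKM, opposite in direction to MGP. ACVRL1, an endothelial BMP receptor, stood at 18.4 and 5.50 FPKM, and SPP1, which encodes osteopontin, at 48.6 and 18.6 FPKM. NT5E, an enzyme that makes adenosine, had a log2 ratio of −1.08.

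CHI3L1 encodes chitinase-3-like protein 1 (YKL-40), a secreted glycoprotein without chitinase activity that is made by meshwork cells, chondrocytes, macrophages and reactive astrocytes. Its locus lies on chromosome F1 (chrF1:41275139-41322759). CHI3L1 stood at 0.854 FPKM in the normal cat and 32.0 FPKM in the affected cat. The affected level was thus 37.5-fold higher (29.0 to 49.1 from counting error), with a log2 ratio of 4.15. The normal value corresponds to 61 fragments per kilobase and the affected value to 2162. Its level exceeded 5.94% of the 16676 loci in the normal cat and 82.8% in the affected cat. Loci below 1 FPKM in a library, such as CHI3L1 in the normal one, are counted only if higher in the other. The low share thus partly reflects the minimum. Only 34 other loci, or 0.204%, were as far up, and 14 of the 5848 loci of like mean level, or 0.239%.

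Listed relatives and receptor proteins of CHI3L1 did not show a difference of this size. CHID1 was the only chitinase relative among them that reached 1 FPKM in a library. Of 9 relatives and receptor proteins of CHI3L1, 7 were in the table, 4 reached 1 FPKM in a library, and all 4 lay within 2-fold on the log2(FPKM + 1) scale, which understates the change of low genes such as IL13RA2. CHID1, a chitinase-domain protein of the lysosome, stood at 64.6 FPKM in the normal cat and 49.9 FPKM in the affected cat. IL13RA2, a receptor that binds CHI3L1, stood at 1.38 and 0.266 FPKM, or 5.19-fold lower in the affected cat without the added 1. TMEM219, its coreceptor, stood at 28.5 and 26.6 FPKM. LGALS3, which encodes galectin-3, a lectin of macrophages and other cells, stood at 86.4 and 143.6 FPKM. CHIA was listed at 0 in both libraries, OVGP1 at 0.0086 FPKM in the normal cat and at 0 in the affected cat, and CTBS stood near 0.15 FPKM in both. CHI3L2 and CHIT1 are not among the names matched and were not analysed here.

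Markers of the other cells that make CHI3L1 did not move as a block. Of 8 macrophage and leukocyte genes 7 were listed, their sum was 34.1 FPKM in the normal cat and 38.5 FPKM in the affected cat, and LYZ was listed at 0 in both. Among them CD163, a scavenger receptor of macrophages, stood at 3.67 and 13.0 FPKM, while CSF1R, the receptor of macrophage growth factor, stood at 12.9 and 11.7 FPKM. Of 8 cartilage genes 6 were listed, and their sum was 349.6 and 1212 FPKM, nearly all of it COL2A1 with 334.5 and 1203 FPKM. COL2A1 is also made in the ciliary epithelium. The other cartilage genes moved in both directions, with COMP at 0.748 and 4.17 FPKM, SOX9 at 7.13 and 3.40 FPKM, HAPLN1 at 5.99 and 1.53 FPKM and ACAN at 1.14 and 0.0377 FPKM, while MATN1 was near 0 in both libraries. All 7 glia genes were listed, with a sum of 100.5 and 79.0 FPKM, and GFAP, the astrocyte filament protein, stood at 1.54 and 2.36 FPKM.

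Most listed markers of neurons and neural retina were higher in the affected library. Of 10 genes 6 were listed, 4 were at least 2-fold higher, against 8.14% of all loci, and 2, STMN2 and ELAVL4, lay within 2-fold. The sum of the 6 was 300.6 FPKM in the normal cat and 1309 FPKM in the affected cat. No listed gene of this group was at 0. The part of these tissues in the CHI3L1 difference was not tested.

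ANGPTL7 encodes angiopoietin-like 7, a secreted protein of the cornea and the meshwork that is known for its link to intraocular pressure. It stood at 2.51 FPKM in the normal cat and 7.93 FPKM in the affected cat. The affected level was 3.16-fold higher (2.66 to 3.76 from counting error), with a log2 ratio of 1.35. These levels exceeded 22.3% and 48.7% of the loci. Of all loci, 4.41% were as far up as ANGPTL7, and 3.97% of the 5394 loci of like mean level.

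The ANGPTL7 value rests on a shared locus. The listed span on chromosome C1 (chrC1:7248489-7382938) is the same as that of MTOR, a kinase of growth control, and in RefSeq annotation of the later assembly F.catus_Fca126_mat1.0 the ANGPTL7 gene lies within the span of MTOR. The labels name a library kit that does not record strand, so fragments of both genes cannot be told apart where they overlap. MTOR itself stood at 10.8 FPKM in the normal cat and 10.6 FPKM in the affected cat, with a log2 ratio of −0.029. The part of MTOR fragments in the ANGPTL7 values was not tested.

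Other angiopoietin-like genes did not show a higher level of this size. Of 7 family members 6 were listed and 4 reached 1 FPKM in a library. None of the 4 was at least 2-fold higher, against 8.14% of all loci, and 2 were at least 2-fold lower, against 8.75%. ANGPTL4, an inhibitor of lipoprotein lipase, stood at 10.1 FPKM in the normal cat and 3.65 FPKM in the affected cat, and ANGPTL1 at 3.84 and 0.769 FPKM. ANGPTL2, the most abundant member, stood at 42.9 and 46.9 FPKM, and ANGPTL6 at 2.67 and 2.89 FPKM. ANGPTL5 had 0.919 FPKM in the normal cat and is listed at 0 for the affected cat. Keratocytes of the cornea also make ANGPTL7, and 7 of the 9 listed stroma genes were at least 2-fold lower in the affected library, with OGN within 2-fold and COL1A2 listed at 0 in the normal one. The part of the stroma in the ANGPTL7 difference was not tested.

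PDPN encodes podoplanin, a mucin-type membrane glycoprotein of lymphatic endothelium, basal epithelium and meshwork cells that binds the platelet receptor CLEC-2. Its level was close in both cats. PDPN stood at 59.9 FPKM in the normal cat and 66.5 FPKM in the affected cat, 1.11 times the normal value (1.06 to 1.16 from counting error), with a log2 ratio of 0.15. These levels exceeded 91.6% and 92.0% of the loci. The locus on chromosome C1 (chrC1:8728753-8845393) shares its span with a row named for both LRRC38 and PDPN, which held 1.88 and 1.53 FPKM, and with a pair of unnamed loci below 0.4 FPKM. With the joint row added to PDPN the log2 ratio was 0.14.

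Genes of epithelium, which also makes podoplanin, were lower in the affected library. Most listed endothelial genes were lower as well, mainly by less than 2-fold on the log2(FPKM + 1) scale. All 8 listed genes of corneal and conjunctival epithelium, of 9 in the list, were at least 2-fold lower, against 8.75% of all loci. Their sum was 580.6 FPKM in the normal cat and 23.7 FPKM in the affected cat. Of 8 genes of lymphatic and Schlemm canal endothelium 7 were listed, with a sum of 85.2 and 52.3 FPKM. Of these, 2 were at least 2-fold lower, against 8.75% of all loci, and none was at least 2-fold higher, against 8.14%. PROX1, the transcription factor of lymphatic fate, was the only listed gene of this group that was higher, at 8.20 and 15.1 FPKM. TEK stood at 12.1 and 2.95 FPKM, CDH5 at 20.5 and 5.61 FPKM, and LYVE1, a hyaluronan receptor, at 9.70 and 6.31 FPKM. FLT4 stood at 2.42 and 0.733 FPKM, or 3.30-fold lower in the affected cat without the added 1. None of the listed genes of these groups was at 0 in either library. The part of these tissues in the PDPN value was not tested.

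Binding partners of podoplanin were mostly lower in the affected library. Most lay within 2-fold, as did most loci, of which only 16.9% were at least 2-fold apart. Of 9 partners 8 were listed and 7 reached the minimum, of which 2 were at least 2-fold lower, against 8.75% of all loci, and 5 lay within 2-fold, with a median log2 ratio of −0.79. CCL21, a lymphatic chemokine that podoplanin retains, stood at 8.86 FPKM in the normal cat and 0.493 FPKM in the affected cat. CD9, a tetraspanin, stood at 83.3 and 29.8 FPKM. The linker proteins that tie podoplanin to actin lay within 2-fold, with EZR (ezrin) at 96.2 and 126.4 FPKM, MSN (moesin) at 56.5 and 32.1 FPKM and RDX (radixin) at 65.9 and 41.0 FPKM. CD44, the hyaluronan receptor, stood at 19.8 and 9.99 FPKM.

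RSPO4 encodes R-spondin 4, a secreted enhancer of Wnt signaling that acts through LGR receptors. Its listed value was 0.207 FPKM in the normal cat and 0 in the affected cat. The normal value corresponds to 15 fragments per kilobase. Both values lie below the minimum, a 0 can be a failed estimate, and the listed locus on chromosome A3 (chrA3:27886946-27891537) is shorter than the RSPO4 gene in the later assembly. No fold was therefore calculated for RSPO4.

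The remainder of the R-spondin axis was well represented. All 9 listed genes, of 11 in the list, reached 1 FPKM in a library, 1 was at least 2-fold higher and none was at least 2-fold lower, a count near the 8.14% higher over all loci. The median log2 ratio of the list was 0.15, or 0.42 with a mean of at least 5 FPKM. RSPO1 stood at 5.92 FPKM in the normal cat and 11.7 FPKM in the affected cat, whereas RSPO3 stood at 5.75 and 3.30 FPKM. RSPO2 stood at 8.42 and 3.75 FPKM, or 2.25-fold lower in the affected cat without the added 1. The receptor LGR4 was the most abundant of the list, at 33.8 and 59.9 FPKM, and LGR6 stood at 0.408 and 2.71 FPKM. The ubiquitin ligases ZNRF3 and RNF43, which remove Wnt receptors and are held back by R-spondins, had log2 ratios of 0.15 and 0.44.

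TMEFF2 encodes tomoregulin-2, a membrane protein with follistatin and EGF-like domains that binds PDGF-AA. Its locus lies on chromosome C1 (chrC1:178659875-178888005), and no other listed locus overlaps it. TMEFF2 stood at 7.97 FPKM in the normal cat and 0.770 FPKM in the affected cat. The normal value was 10.3 times the affected value (7.78 to 14.0 from counting error), with a log2 ratio of −2.34. Its level exceeded 48.3% of the loci in the normal cat and 6.07% in the affected cat. The affected value lay below 1 FPKM, so TMEFF2 was counted only through the normal library, and the low share partly reflects the minimum. As far down were 1.07% of all loci and 1.26% of the 5084 loci of like mean level. With a mean of at least 5 FPKM as the minimum TMEFF2 was not used, and 1 gene in place of 2 was then at least 2-fold lower.

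NELL2 encodes a secreted protein with EGF-like repeats that guides axons through ROBO3. It lies on chromosome B4 (chrB4:74415591-74741511), where a row named 5S_rRNA shares its span and is listed at 0 in both libraries. NELL2 stood at 16.5 FPKM in the normal cat and 11.3 FPKM in the affected cat. The normal value was 1.45 times the affected value (1.33 to 1.59 from counting error), with a log2 ratio of −0.50. Of all loci, 21.8% were as far down as NELL2, so its difference was common in these libraries.

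Neurons also express TMEFF2 and NELL2. SNAP25, a synaptic protein, stood at 41.1 FPKM in the normal cat and 89.8 FPKM in the affected cat, while STMN2, a protein of growing axons, stood at 13.1 and 7.05 FPKM, and ELAVL4 at 1.12 and 0.764 FPKM. The photoreceptor genes SAG, PRPH2 and RCVRN were each higher by at least 2-fold in the affected cat. The part of neurons in the TMEFF2 and NELL2 values was not tested.

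Relatives and binding partners of these genes were mostly lower or within 2-fold. Of 10 genes 9 were listed and 8 reached the minimum, of which 4 were at least 2-fold lower, against 8.75% of all loci, and none was at least 2-fold higher, with a median log2 ratio of −0.71, or −0.25 with no minimum. NELL1, the paralog of NELL2, stood at 7.77 FPKM in the normal cat and 0.372 FPKM in the affected cat, a larger fold than that of NELL2. PDGFRA, the receptor of PDGF-AA, stood at 30.6 and 8.36 FPKM, whereas its ligand gene PDGFA stood at 34.0 and 28.5 FPKM. ROBO1 stood at 12.0 and 3.58 FPKM, and ROBO3, the receptor of NELL2, at 0.888 and 1.35 FPKM. FST, which encodes follistatin, stood at 5.84 and 2.05 FPKM, and FSTL1 was nearly equal at 587.1 and 581.4 FPKM.

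**Figure D3:**
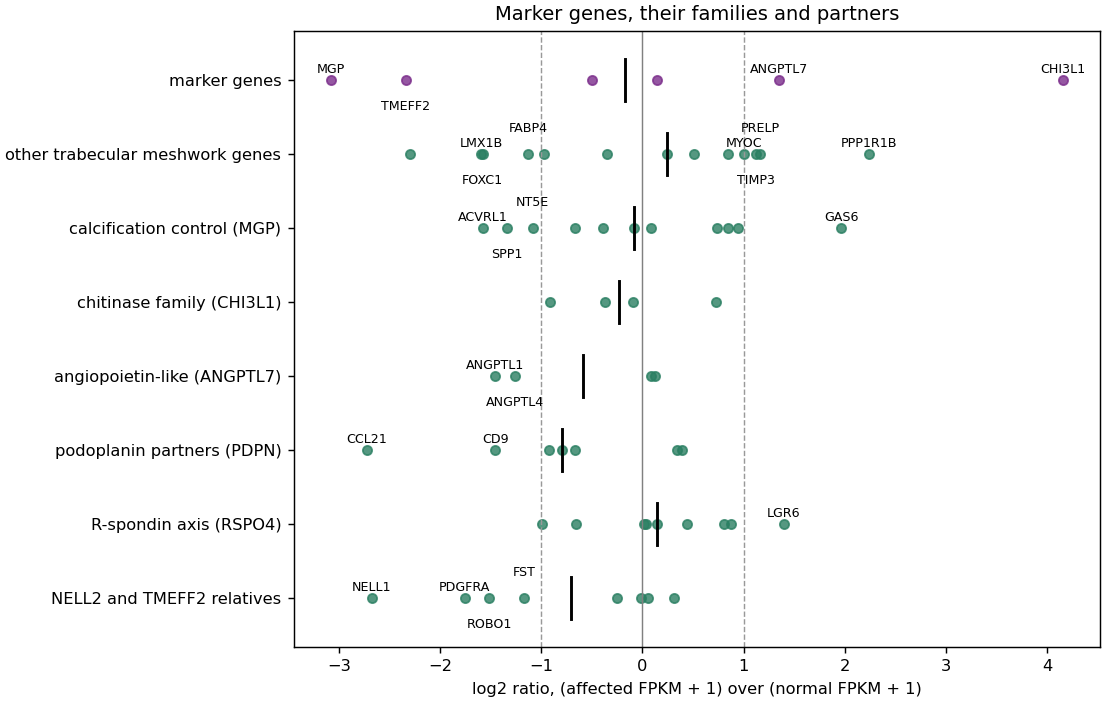
Log2 ratio, affected over normal, of each gene with at least 1 FPKM in a library, in rows for the marker genes and for the lists of related genes. Each point is a gene, black bars are medians, dashed lines mark 2-fold, and most genes beyond them are named; CHI3L1 at 4.15 and MGP at −3.08 lie outside the range of all the lists shown.

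Other genes of the meshwork also moved in both directions. Of 17 genes 13 were listed, and 4 were at least 2-fold higher, 4 at least 2-fold lower and 5 within 2-fold, against 8.14% of all loci higher and 8.75% lower. Their median log2 ratio was 0.24, or 0.37 with a mean of at least 5 FPKM. Most of them are also made by other tissues of the eye. PPP1R1B, which encodes the phosphatase inhibitor DARPP-32, stood at 44.8 FPKM in the normal cat and 215.2 FPKM in the affected cat. PRELP, a matrix proteoglycan, stood at 87.0 and 196.2 FPKM, and TIMP3, an inhibitor of matrix proteases, at 161.7 and 353.9 FPKM. FABP4, a fatty acid carrier, stood at 1.22 and 0.0159 FPKM. FOXC1 and LMX1B, transcription factors that pattern the angle, were lower in the affected library, and LMX1B stood at 13.4 and 3.78 FPKM. SPARC, a matricellular protein of the meshwork, stood at 4853 and 2467 FPKM, and IGFBP7 at 2310 and 1814 FPKM.

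**Figure D4:**
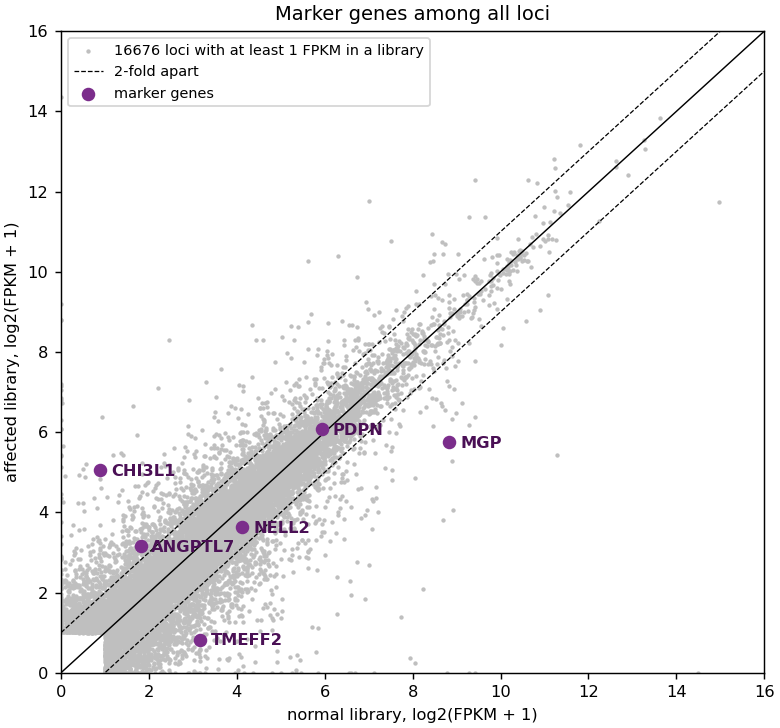
Level in the affected against the normal library, as log2(FPKM + 1), for 16676 loci in gray and 6 marker genes in purple, with a solid line at equal levels and dashed lines at 2-fold. CHI3L1, MGP and TMEFF2 lie at the edge of the cloud, ANGPTL7 lies just above the upper 2-fold line, and PDPN and NELL2 lie within the lines.

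The genes nearest in level to each marker in both libraries together were found by distance in log2(FPKM + 1) over the 2 libraries, among 11307 named loci. Such closeness over 2 values is a description and says nothing of shared control. Within a distance of 0.25 there were 254 loci for NELL2, 130 for PDPN, 24 for ANGPTL7, 9 for TMEFF2, 1 for CHI3L1 and 0 for MGP. MGP thus had the fewest loci of like level. The nearest to MGP were PCOLCE, at 478.8 FPKM in the normal cat and 37.8 FPKM in the affected cat, and COL6A1, at 353.9 and 69.7 FPKM. The nearest to CHI3L1 were CLUL1, at 0.860 and 27.6 FPKM, and C19orf77, at 0.473 and 35.8 FPKM. TMEFF2 stood nearest to KITLG and DMRTA2, ANGPTL7 to ZNF385C and ACBD7, PDPN to CTBP1 and PIGF, and NELL2 to USP1 and ENTPD5.

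**Figure D5:**
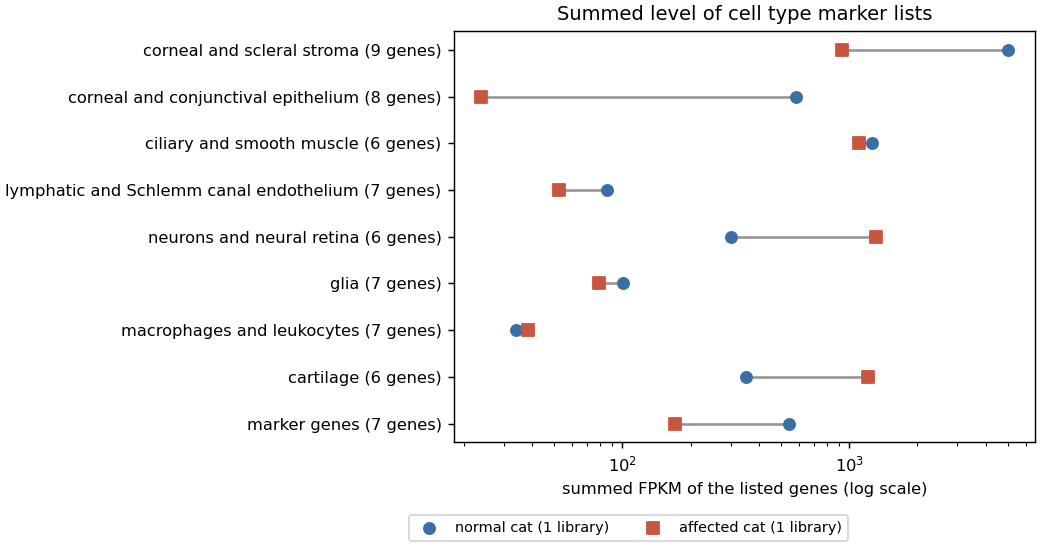
Summed FPKM of the listed genes of each cell type list on a log axis, with a circle for the normal and a square for the affected library. Epithelium stood at 580.6 FPKM in the normal cat and 23.7 FPKM in the affected cat, stroma at 5024 and 929.3 FPKM, neurons and neural retina at 300.6 and 1309 FPKM, and the 7 marker genes at 542.8 and 171.4 FPKM.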

How the data were processed

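RNA was prepared with the TruSeq v2 kit. Alignment by the authors used TopHat 2.0.9 with the felCat5 genome and gene predictions of Ensembl, and the deposited values are FPKM per locus, calculated by the authors with Cufflinks 2.1.1. The scaling between libraries is not given in the sources used here. Since FPKM are normalized values from 1 library per condition, neither a count model nor a test was applied.

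Log2 ratios were taken after adding a pseudocount of 1 to each deposited FPKM, over loci with at least 1 FPKM in a library, and understate the change of low genes. Starts were converted to positions counted from 1. The fragment scale was fitted at 4159 unnamed loci for the normal cat and 3972 for the affected cat, where 95.0% and 94.6% of values lay within 0.03 of a whole fragment (6% by chance). The 95% intervals are exact binomial, for 1 kilobase of effective length. Both calculations were tested on simulated data.

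The text names the 7 genes, members of 15 lists of related genes and cell type markers, and the 2 named loci nearest to each gene in level. The genes and lists were chosen with earlier results of these data known, so no list is independent evidence. RefSeq entries of F.catus_Fca126_mat1.0 were matched for 6 of the 7 genes and used only for neighboring genes. Values of some genes of these lists are not reported here. Alternatives were another pseudocount, 2 rescalings, other minimums and a 1.5-fold threshold. Python 3.11.15, numpy 2.4.6, pandas 2.3.3, scipy 1.17.1 and matplotlib 3.10.9 were used.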

Additional observations from a re-analysis of the deposited data

How the results depend on the processing

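The sign of each of the 6 gene ratios held under every alternative in which the gene was used, over 30 recomputed values. With a pseudocount of 0.1 FPKM the log2 ratio was 5.07 for CHI3L1, 1.62 for ANGPTL7 and −3.21 for TMEFF2, because a smaller pseudocount shrinks low values less. After rescaling of each library to a total of 1000000 FPKM it was 4.39 for CHI3L1 and −2.63 for TMEFF2. With a mean of at least 5 FPKM, which left out TMEFF2, 1 gene was at least 2-fold lower and the median of the genes was 0.15. The mean in place of the median was −0.046, so neither summary gives the genes a common direction. The cartilage list median turned from −0.88 to 0.48 at that minimum, since fewer genes were used. Of 90 recomputed list medians this was 1 that changed sign, and 18 others moved by at least 0.1. Among these, the median of the NELL2 and TMEFF2 relatives was −0.25 with no minimum, that of the angiopoietin-like family went from −0.59 to −1.27 after rescaling, and that of the R-spondin axis from 0.15 to 0.42 at the mean of 5 FPKM. The cause of these moves was not tested. The loss of loci listed at 0 in exactly 1 library, an alternative chosen after seeing the data, left 2 genes on each side. No paired analysis was possible because there is only 1 library for each condition. Values of CHI3L1 in the normal and TMEFF2 in the affected library rest on few fragments, and variation between cats cannot be estimated.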

Other observations

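Muscle of the ciliary body pulls on the meshwork, and most of its listed genes lay within 2-fold. Of 7 genes of ciliary and smooth muscle 6 were listed. At least 2-fold lower was 1 of them, against 8.75% of all loci, and 5 lay within 2-fold. Summed levels were 1263 FPKM in the normal cat and 1102 FPKM in the affected cat. ACTA2, smooth muscle actin, stood at 600.0 and 699.4 FPKM, MYH11, the smooth muscle myosin, at 88.2 and 140.8 FPKM, and TAGLN (transgelin) at 501.0 and 198.6 FPKM.

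Among glia genes SLC1A3, a glutamate transporter, stood at 15.5 FPKM in the normal cat and 33.3 FPKM in the affected cat, and the water channel gene AQP4 stood at 0.186 and 1.36 FPKM.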
